A study of Rattus norvegicus with 28 samples.

Results

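The 150 genes described here are those whose RNA stood highest above the comparison groups in rat neural progenitor cells exposed to injured spinal cord. This held at both 3 and 4 weeks, against uninjured cord of those weeks and culture, while week 2 was not compared. They were chosen by value from the 32545 genes of the count table. For each gene the mean level in CPM (the gene's count scaled to a library total of 1000000 counts) was taken in each group and 1 CPM was added. The lower of the injured week 3 and injured week 4 means was then divided by the highest of the uninjured week 3, uninjured week 4 and culture means. Of 162 genes with a ratio of at least 2 and a lower injured value of at least 10, the 150 with the largest ratios were kept. The last 3 kept had ratios of 2.15, 2.13 and 2.13, and the next 3 had 2.12, 2.12 and 2.10, so the limit falls in a run of near-equal genes. Differences between injured cord and the other settings at weeks 3 and 4 chose these genes and are given as a description, without a test.

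The libraries are labelled as neural progenitor cells of the rat, in 7 groups of 4. One group was kept in culture. The others were exposed to spinal cord labelled with injury, called injured here, or to spinal cord labelled without it, called uninjured here, each for 2, 3 or 4 weeks. The series concerns stem cell transplantation into the injured cord of rodents. The labels give no strain, age, number of animals, graft site or method of recovering the cells, and do not say whether the 4 libraries of each group are separate animals, cultures or preparations. The p-values below thus refer to the spread between these libraries, which may be technical. RNA of surrounding cord tissue cannot be told apart from RNA of the exposed cells, nor fewer cells of a type from less RNA per cell.

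Neural progenitor cells are dividing cells of the nervous system that can give rise to neurons, astrocytes and oligodendrocytes. After a spinal cord injury the tissue around the lesion changes: microglia and blood-borne macrophages gather, astrocytes become reactive, fibroblast-like cells lay down matrix, and myelin is broken down and cleared. Progenitor cells placed in such a cord can meet signals that differ from those of an intact cord or of a culture dish. The genes cannot be assigned to any of these processes here, because the count table gives rat Ensembl identifiers without names, and none of the 150 identifiers was in the reference tables used. The label of neural progenitor cells could not be checked against marker genes for the same reason. No promoter or protein sequence could be matched, so none is shown.

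Libraries held 2605188 to 6908508 counts, except in week 2, where they held 84532 to 446331. The rule used 19 libraries. It left out the week 2 libraries and injured week 3 replicate 3, a library that had 0 counts for many genes its companions expressed.

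Together the 150 genes took a share of the RNA in injured weeks 3 and 4 several times that in any other group. They held 3.12% ± 0.325 of all counts in injured week 3 (SD, n = 3) and 2.22% ± 0.311 in injured week 4 (SD, n = 4). The share was 0.398% ± 0.0296 in uninjured week 3, 0.401% ± 0.0403 in uninjured week 4 and 0.459% ± 0.0174 in culture (SD, n = 4 each). At week 2 it was 0.468% ± 0.0471 in injured and 0.487% ± 0.0782 in uninjured cord (SD, n = 4 each). In single libraries the summed level was 28889, 29746 and 34898 CPM in injured week 3, and 21909, 17962, 25148 and 23720 CPM in injured week 4. The 12 uninjured and culture libraries of these groups lay between 3540 and 4822 CPM. All 7 injured libraries were above the others. On these unscaled values the 3 week 3 libraries were above the 4 of week 4, an order that depends on the scaling and on the libraries used. With totals scaled by TMM factors, which ranged over 0.729 to 0.866 for the week 4 libraries and 1.02 to 1.05 for those of week 3, the sums were 24628 to 29050 CPM at week 4 and 28326 to 33094 CPM at week 3, which overlapped. Injured week 3 replicate 3, at 20066 unscaled CPM, lay within the week 4 range. That library had 0 counts for 67 of the 150 genes, the most abundant among them.

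**Figure D1:**
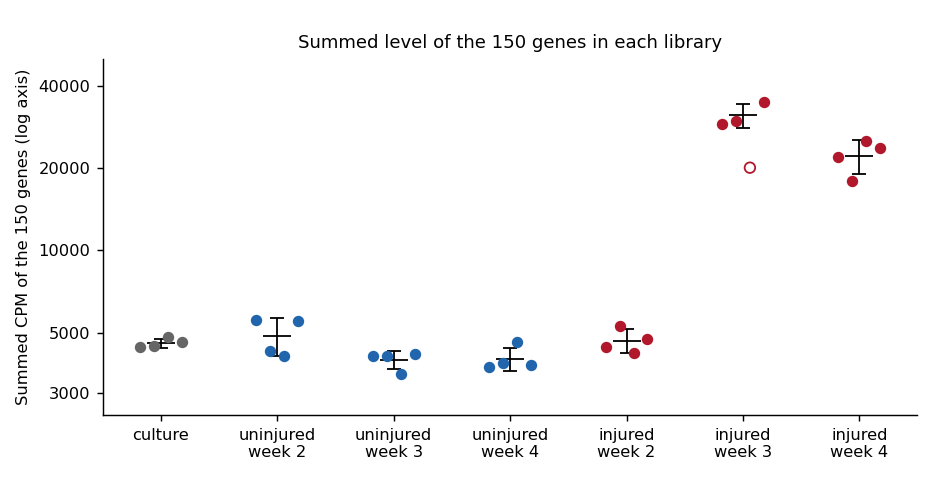
Summed CPM of the 150 genes in each of 28 libraries, on a log axis, with the group mean and SD as black bars. Injured week 3 and week 4 libraries stand at 17962 CPM or more, while culture, uninjured and injured week 2 libraries stay at or under 5569 CPM. The open circle is injured week 3 replicate 3 (20066 CPM), which is left out of its group's mean and SD.

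The sum rested on few genes. The most abundant of the 150 had 6609 ± 1255 CPM in injured week 3 (SD, n = 3) and 4416 ± 947 CPM in injured week 4 (SD, n = 4), which was 21.2% and 19.9% of the summed means. The same gene was among the more abundant elsewhere too, at 877 ± 235 CPM in uninjured week 3, 614 ± 76.4 CPM in uninjured week 4 and 650 ± 69.6 CPM in culture (SD, n = 4 each). The 10 most abundant genes made up 44.0% of the week 3 sum and 47.2% of the week 4 sum. Without the most abundant gene the sums were 24569 ± 2011 CPM in injured week 3 (SD, n = 3) and 17769 ± 2429 CPM in injured week 4 (SD, n = 4), against 3102 ± 105.4 CPM in uninjured week 3, 3395 ± 344 CPM in uninjured week 4 and 3936 ± 123.8 CPM in culture (SD, n = 4 each).

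By the median, the level of the 150 was lowest in uninjured weeks 3 and 4 and higher in culture. The median of their group means was 90.0 CPM in injured week 3 and 52.7 CPM in injured week 4, against 4.65 CPM in uninjured week 3, 7.66 CPM in uninjured week 4 and 14.1 CPM in culture. In injured week 3, 73 genes had a mean of 100 CPM or more, and in injured week 4, 47 did. Means of 100 CPM or more were reached by 8 genes in each of the uninjured week 3 and week 4 groups and by 9 in culture. A mean under 1 CPM was found for 27 genes in uninjured week 3, 11 in uninjured week 4 and 7 in culture.

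On unscaled CPM, without injured week 3 replicate 3, the contrast with uninjured cord was wider at week 3 than at week 4. Folds on scaled totals were not taken. With 1 CPM added to each mean, injured over uninjured had a median fold of 9.70 at week 3 (quartiles 5.77 and 19.96) and 5.23 at week 4 (quartiles 3.71 and 7.67). Folds of 10 or more were reached by 72 genes at week 3 and 20 at week 4. Against culture the median folds were 6.56 for injured week 3 and 3.60 for injured week 4, with 32 and 14 genes at 10-fold or more. For 143 of the 150 genes, every one of the 7 injured libraries lay above every one of the 12 comparison libraries. Across all genes of the table, 0.953% showed that separation, which the choice of the genes largely fixes.

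**Figure D2:**
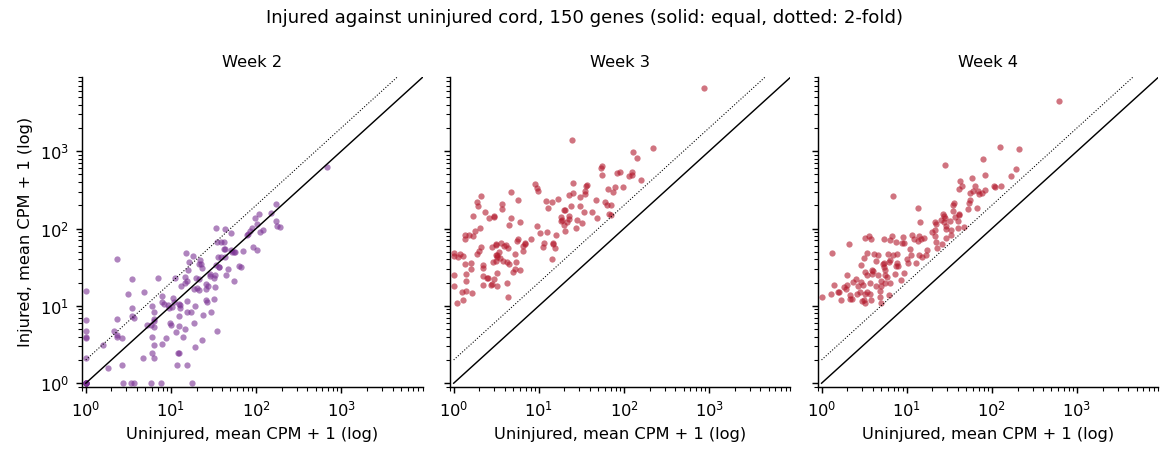
Mean injured against mean uninjured CPM plus 1 for the 150 genes at weeks 2, 3 and 4, on log axes, with 1 point a gene. At weeks 3 and 4, which chose the genes, all points lie above the dotted 2-fold line, and at week 2, which did not, they spread on both sides of the solid line of equality, with 68 genes higher and 76 lower in injured cord.

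Spread between libraries was close to that of other genes. Among genes with a group mean of at least 9 CPM, the median coefficient of variation (SD as a percentage of the mean) was 16.1% for the 150 genes and 15.7% for 9152 others in injured week 3, and 22.2% and 20.04% (8723 others) in injured week 4. In culture it was 10.6% over the 88 of the 150 at that level and 8.97% over 9086 others.

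The largest ratio, 12.5, belonged to ENSRNOG00000017568. It had 21.8, 27.6 and 23.8 CPM in the injured week 3 libraries, and 16.1, 28.3, 24.6 and 26.4 CPM in the injured week 4 libraries. In culture it had 1.33, 0.190, 0.720 and 0.868 CPM, and in uninjured week 4 it had 0, 0.225, 1.92 and 1.79 CPM. All 4 uninjured week 3 libraries had 0 counts, which over their summed totals allows up to 0.184 CPM from a floor of 3 counts, counting error only. The 7 injured libraries formed a narrow band far above the uninjured and culture libraries of these groups, and the injured weeks overlapped. Week 4 against week 3 gave a log2 fold change of 0.32 (95% interval -0.63 to 1.26, edgeR quasi-likelihood test, adjusted p = 0.723).

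ENSRNOG00000013090 had the next largest ratio, 11.8, at a much higher level. Its libraries stood at 330, 398 and 426 CPM in injured week 3 and at 633, 714, 618 and 717 CPM in injured week 4. In culture they stood at 26.1, 30.9, 36.4 and 33.6 CPM. Uninjured libraries had 20.2 to 30.8 CPM at week 3 and 21.4 to 30.0 CPM at week 4, so the 3 comparison groups overlapped. Among these 7 injured libraries the weeks did not overlap, and the gene rose from week 3 to week 4 in them (log2 fold change 1.15 ± 0.26 SE, edgeR adjusted p = 0.000698). Injured week 3 replicate 3, left out here, had 861 unscaled CPM, above all 4 week 4 libraries. With all 28 libraries in the fit, on TMM-scaled counts, the rise was still called (log2 fold change 0.91, edgeR adjusted p = 0.0131).

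The order of the injured weeks is not fixed by the choice of genes, which used the lower of both means. Both means still entered that choice, so the calls below describe values it used and are not an independent test. That order was tested with edgeR over 14282 genes, with scaling factors (TMM) that make up for differences in RNA composition. Of the 150 genes, 33 fell from week 3 to week 4 and 9 rose (adjusted p under 0.05). Across all genes tested 21.6% changed, 7.77% falling and 13.8% rising, so that falls made up 22% of the 150 and rises 6%. The median log2 fold change was -0.33 for the 150 and -0.03 for all genes, and 47 of the 150 had a positive one. On plain CPM, without the scaling factors, 23 of the 150 were higher at week 4 and the rest lower. Another scaling, RLE, moved the median of all genes to -0.19 and that of the 150 to -0.49, with 39 falling and 8 rising. Over all genes it changed the called split from 1968 higher and 1110 lower to 1724 higher and 1582 lower. With injured week 3 replicate 3 included, 16 of the 150 fell and 6 rose, or 14.7% called where 16.2% of all genes were (1465 higher and 777 lower).

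The 33 genes that fell did so by log2 fold changes of -0.86 to -2.43, with a median of -1.30. Their median level went from 134.7 CPM in injured week 3 to 40.4 CPM in injured week 4, and was 12.6 CPM in culture, 2.65 CPM in uninjured week 3 and 6.55 CPM in uninjured week 4. They held 21.3% of the summed level at week 3 and 9.33% at week 4. The 9 that rose did so by log2 fold changes of 0.80 to 2.56, with a median of 1.29. Their median level went from 221.8 to 356.3 CPM, and they held 7.39% of the sum at week 3 and 18.4% at week 4. The 9 stood at a median of 31.8 CPM in culture, and at 58.1 and 54.6 CPM in uninjured weeks 3 and 4. The remaining genes did not pass the test and had a median log2 fold change of -0.19.

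**Figure D3:**
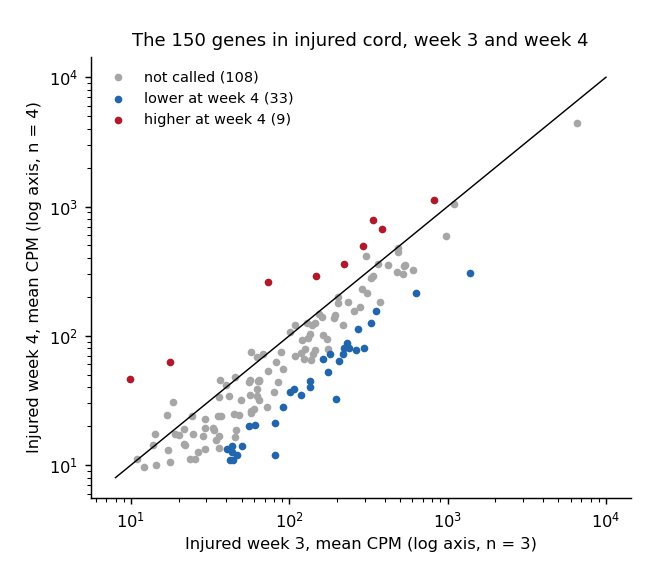
Mean CPM of the 150 genes in injured week 3 (n = 3) and week 4 (n = 4), on log axes, with the line of equality. Blue points (33) fell and red points (9) rose from week 3 to week 4 in the edgeR test on TMM-scaled counts, and grey points did not pass it. Most points lie below the line on this unscaled axis.

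The largest falls among the 150 were those of ENSRNOG00000017725 and ENSRNOG00000014006, singled out after their values were seen. ENSRNOG00000017725 had 86.2, 93.3 and 62.9 CPM in injured week 3 and 8.71, 9.34, 14.997 and 14.5 CPM in injured week 4 (log2 fold change -2.43 ± 0.51 SE, edgeR adjusted p = 0.000275). Its culture libraries lay between 0.579 and 3.60 CPM, and its uninjured week 4 libraries between 0 and 7.29 CPM. At week 4 the lowest injured library was thus just above the highest uninjured one.

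ENSRNOG00000014006 had 168, 166 and 257 CPM in injured week 3 and 26.4, 23.2, 44.1 and 35.7 CPM in injured week 4. The weeks did not overlap (log2 fold change -2.27 ± 0.41 SE, edgeR adjusted p = 2.44e-05). Culture libraries held 12.4 to 15.9 CPM, uninjured week 3 libraries 0.284 to 2.08 CPM and uninjured week 4 libraries 0 to 5.76 CPM.

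Culture was the highest of the 3 comparison groups for 99 genes, uninjured week 4 for 32 and uninjured week 3 for 19. The choice of genes divides by the highest of these groups, and 2 of the 3 are uninjured cord and 1 is culture. The calls among them therefore describe values that the choice used and are not an independent test. Set against culture, the mean of uninjured weeks 3 and 4 was lower for 62 of the 150 genes and higher for 14 (edgeR adjusted p under 0.05). Across all genes tested, 53.7% differed, 25.8% lower and 27.9% higher among them, while of the 150 41.3% were lower and 9.33% higher. The median log2 fold change was -0.54 for the 150 and 0.02 for all genes. The RLE scaling moved these medians to -0.71 and -0.15. With it 80 of the 150 were lower and 12 higher, where 4485 of all genes were lower and 3535 higher.

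The 62 genes lower in uninjured cord had a median log2 fold change of -1.83. Their median level was 12.6 CPM in culture, 2.01 CPM in uninjured week 3, 5.10 CPM in uninjured week 4, 82.5 CPM in injured week 3 and 44.2 CPM in injured week 4. The 14 genes higher in uninjured cord than in culture had a median log2 fold change of 1.10 and median levels of 15.1 CPM in culture, 22.7 and 27.2 CPM in uninjured weeks 3 and 4, and 104.8 and 103.5 CPM in injured weeks 3 and 4. One gene of the 62 had 0 counts in all uninjured libraries of these weeks, and 1 of the 14 had 0 counts in culture. Setting both at the bound from a floor of 3 counts over the group left the medians at -1.83 and 1.10.

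The comparison of injured weeks and that of uninjured cord with culture share no library. Of the 33 genes that fell between the injured weeks, 22 were also lower in uninjured cord than in culture, and none was higher. These 22 were 66.7% of the first list and 35.5% of the second. Among all 1110 genes that fell, 72.5% were lower in uninjured cord and 7.03% higher, so an overlap of this size is not particular to the 150. Among the 9 genes that rose, 3 were lower in uninjured cord and 1 was higher.

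**Figure D4:**
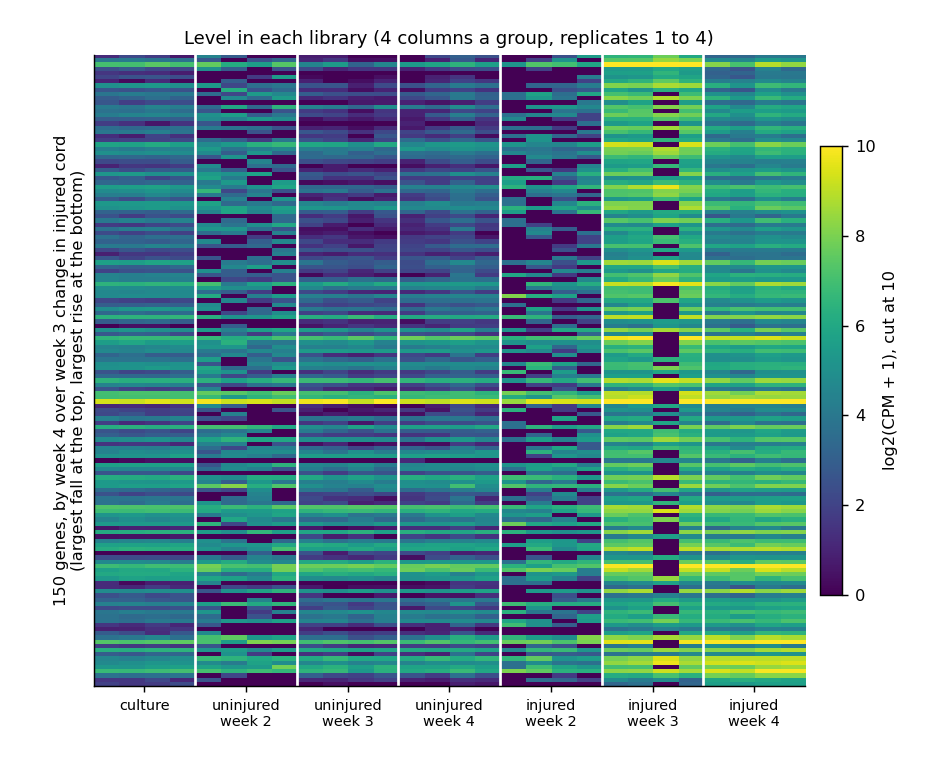
Level of each of the 150 genes (rows) in each of 28 libraries (columns, 4 a group, replicates 1 to 4 from left to right), as log2(CPM + 1). Rows run from the largest fall to the largest rise between injured week 3 and week 4. Injured weeks 3 and 4 are brighter than uninjured weeks 3 and 4 and culture, except for dark gaps in injured week 3 replicate 3, where 67 genes have 0 counts. Uninjured week 3 is darkest among the rows at the top.

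Within uninjured cord, 8 of the 150 genes were higher at week 4 than at week 3 and none was lower (edgeR adjusted p under 0.05, log2 fold changes of 1.49 to 3.65). Both groups also entered the choice of genes, so these calls too are a description. Across all genes 0.525% differed, 0.441% higher and 0.084% lower. At an unadjusted p under 0.05 there were 44 of the 150 (29.3%), where 14.3% of all genes tested were under it. DESeq2 called 27 higher and 1 lower, or 18.7% of the 150, where it called 5.01% of all genes. With limma the shares were 22.7% and 19.8%, and with all 28 libraries no gene of the table was called. The median log2 fold change was 0.40 for the 150 and 0.04 for all genes. The 8 genes had means of 0.346 to 8.60 CPM at week 3 and 4.56 to 24.0 CPM at week 4.

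One library moved with that difference. Uninjured week 4 replicate 3 was the highest of its group for 91 of the 150 genes and for 6 of the 8. Its level over the mean of the other 3 had a median of 0.40 log2 units over the 150 genes, against 0.08 over other genes of at least 1 CPM, with 1 CPM added. Without it 0 of the 150 genes were called, with 30 at an unadjusted p under 0.05, and the median log2 fold change was 0.24. Calls over all genes fell as well, from 75 to 2 (0.0141%), so the loss was not particular to the 150. Without uninjured week 3 replicate 4, 0 of the 150 and 0.014% of all genes were called. Without uninjured week 3 replicate 1 or 2, 2 of the 150 were left (1.33%), where 0.134% and 0.0841% of all genes were. Without uninjured week 4 replicate 1 or 2 there were 14 (9.33%), where 0.603% and 1.13% of all genes were called.

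The week 2 libraries had no part in the choice of genes and hold the same contrast, injured against uninjured cord. There, the 150 genes showed no shared shift towards injured cord. Their sum was 4448, 5297, 4205 and 4751 CPM in the injured libraries and 5569, 4295, 4103 and 5525 CPM in the uninjured ones, which overlapped, and both were near the culture level. By mean CPM, 68 genes were higher and 76 lower in injured cord. In injured week 2, 3 genes had a mean above both later injured means and 141 had one below both. The median log2 fold change was -0.04 for the 150 and -0.05 for all genes tested. For 12 genes 1 of both groups had 0 counts, and with these at their bound the median of the 150 was -0.01.

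By the edgeR test 4 of the 150 genes were lower in injured week 2 cord and none was higher (adjusted p = 0.00916 to 0.0358), or 2.67%, where 3.37% of all genes were called in either direction, 2.16% lower and 1.2% higher. These 4 had 16 to 35 counts over the uninjured group and 0 to 4 over the injured group. At an unadjusted p under 0.05, 12 of the 150 were higher and 24 lower, or 24% where 20.4% of all genes tested were under it. DESeq2 called 6 higher and 12 lower, or 12% where it called 10.8% of all genes. With limma 0 of the 150 and 0 of all genes were called. The count was 13 (6 higher and 7 lower) without injured week 2 replicate 4, or 8.67% where 3.95% of all genes were called. Without replicate 2 it was 7, or 4.67% where 4.08% of all genes were.

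Depth set what week 2 could show. The 150 genes had a median of 14.5 counts over the 4 injured libraries and 15.5 over the 4 uninjured ones, and the median standard error of the log2 fold change was 0.77. Even so, the upper bound of the 95% interval was under a 2-fold rise for 68 genes. The lower bound was above a 2-fold fall for 45. These bounds are approximate at such counts and were not counted over all genes. For ENSRNOG00000013090, injured week 2 libraries had 11.8, 28.2, 13.4 and 11.9 CPM and uninjured ones 26.4, 16.7, 53.9 and 29.2 CPM, a log2 fold change of -1.08 with a 95% interval of -1.95 to -0.21 (edgeR adjusted p = 0.137). ENSRNOG00000017568 had 5 counts over the injured and 4 over the uninjured group, too few to compare. Week and depth cannot be told apart in level between week 2 and the later weeks.

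Injured week 3 replicate 3, which the choice of genes did not use, held the 150 in an all-or-none manner. It had 0 counts for 67 of them (44.7%), although none of the 150 was at 0 in the other 3 libraries of its group. Of 8913 other genes in the same range of injured week 3 means, 28.1% were at 0. The 67 had means of 9.90 to 6609 CPM in the other 3 libraries, with a median of 134.7 CPM, and included the most abundant of the 150. The remaining 83 had a median of 64.7 CPM there. All 83 lay above every uninjured and culture library of the groups compared. Of all genes of the table, with or without counts in this library, 19.6% did, a share to set beside 83 of the 150. That share was not taken over other genes with counts there. The level of the 83 was 0.903 to 2.95 times the mean of the other 3 libraries, with a median of 1.79. This ratio is of unscaled CPM and was not taken for other genes, so it cannot be called particular to the 150. ENSRNOG00000017568 had 50.4 CPM and ENSRNOG00000013090 had 861 CPM in this library.

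**Figure D5:**
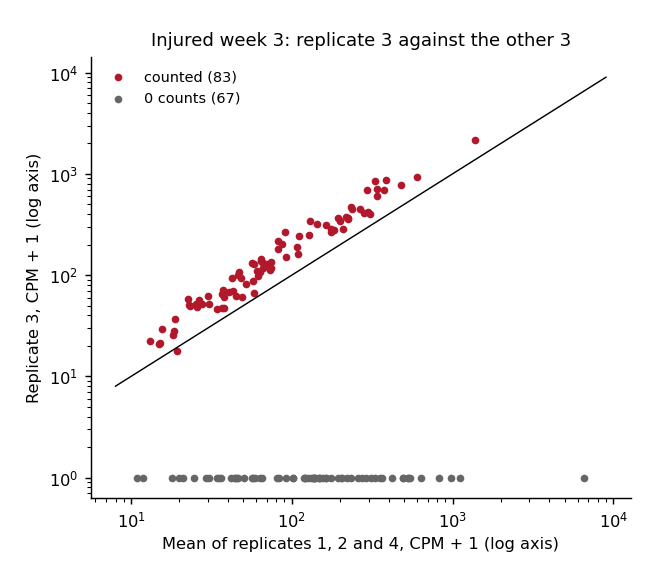
Level of the 150 genes in injured week 3 replicate 3 against the mean of replicates 1, 2 and 4, as CPM plus 1 on log axes, with the line of equality. The 83 genes with counts (red) run in a band mostly above the line, and the 67 with 0 counts (grey) lie along the bottom across the whole range of expression.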

How the data were processed

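Raw counts for 28 libraries, without normalization, make up the single table that the authors deposited. The submitters' processing notes name Trim Galore 0.4.1, STAR 2.5.1, StringTie 1.3.3 and featureCounts 1.5.1, and a mouse build for a table of rat identifiers. The strand setting, the annotation and the handling of duplicates and shared reads are not given in sources used here. Counts of near-identical or overlapping genes are therefore uncertain. Per the labels' protocols, libraries were made with a strand-specific kit for small inputs of total RNA.

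CPM used column totals. Tests used R 4.3.3 with edgeR 4.0.16 (TMM factors, filterByExpr, robust quasi-likelihood fit and its F test) on 27 libraries in 1 fit with a mean for each of 7 groups, without injured week 3 replicate 3. This left 20 residual degrees of freedom and 14282 genes, all 150 among them. Benjamini-Hochberg adjustment ran over these genes, with calls under 0.05. The scripts were tested on simulated data. No 2 of the 42 pairs of libraries within groups were identical or agreed within sampling noise (chi-square per degree of freedom of 2.80 or more). Alternatives were RLE factors, DESeq2 1.42.0, limma 3.58.1 (voom with quality weights), other filters and sets of libraries.

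The genes and the gene lists were chosen with earlier results of these data known. Lists, markers and motifs could not be applied without gene names. Identifiers to print were the 2 with the largest ratios, and 2 that fell most were added. The counts carry no molecular identifiers, so reads are not independent molecules.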

Additional observations from a re-analysis of the deposited data

Results flagged for a closer look

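A library lay apart from the other 3 of its group by Dixon's ratio in 6 of 34 groups of 4 values, where chance gives about 1 in 20 (1.7). The summed level of the 150 genes was low in uninjured week 3 replicate 3, at 3540 CPM against 4095 to 4184 CPM in the others. It was high in uninjured week 4 replicate 3, at 4610 CPM against 3751 to 3860 CPM. The other 4 were in shallow week 2 libraries and concern single genes. ENSRNOG00000017568 had 21.1 CPM in uninjured week 2 replicate 1 and 0 counts in the other 3, which makes the ratio 1 by construction. ENSRNOG00000013090 had 28.2 CPM in injured week 2 replicate 2 against 11.8 to 13.4 CPM. ENSRNOG00000017725 had 44.6 CPM in injured week 2 replicate 4 against 0 to 4.48 CPM. ENSRNOG00000014006 had 33.6 CPM in injured week 2 replicate 3 against 0 to 2.82 CPM. A floor of 3 counts is 6.72 to 35.5 CPM in single injured week 2 libraries.

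Injured week 3 replicate 3 was used neither to choose the genes nor in the tests. In it, 83 of the 150 genes lay above every uninjured and culture library of the groups compared, and the other 67 had 0 counts. Of all genes of the table, at any level and with or without counts there, 19.6% lay above them. Where detected, the 150 stood at a median of 1.79 times the mean of the other 3 libraries in unscaled CPM, a ratio not taken for other genes.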

How the results depend on the processing

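The choice of genes kept 142 to 149 of the 150 when 1 library was left out. It kept 142 with TMM-scaled and 141 with RLE-scaled totals, 145 with all 4 injured week 3 libraries, 149 with 0.5 CPM added, 129 with 5 CPM added and 147 with the level limit set before 1 CPM was added, an alternative chosen after seeing the data.

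The gap between the lowest injured week 3 and the highest injured week 4 sum, 3741 CPM, became -725 CPM with TMM-scaled totals and -5082 CPM with all 4 injured week 3 libraries, both alternatives chosen after seeing the data.

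Calls between injured weeks 4 and 3 numbered 42, or 28% of the 150 against 21.6% of all genes. They were 30 (20% against 16%) to 44 (29.3% against 21%) with 1 library left out. There were 86 with limma (57.3% against 41.7%) and 22 with all 28 libraries (14.7% against 16.2%, no excess over all genes). With the week 2 libraries left out of the fit there were 68 (45.3% against 40%), and with only the compared groups fitted 72 (48% against 38.9%). More of the 150 fell than rose in every one of these fits. At week 2 the 4 calls (2.67% against 3.37%) became 3 (2% against 3.29%) to 13 (8.67% against 3.95%) with 1 library left out. There were 18 with DESeq2 (12% against 10.8%), 0 with limma (0 of all genes) and 8 with no low count filter (5.33% against 2.39% of 25922 genes). With only the compared groups fitted, 43 of the 150 passed the filter, 0 of them had an unadjusted p under 0.05, and 0 of all genes were called. Between uninjured weeks 4 and 3 the 8 calls (5.33% against 0.525%) became 0 to 14 with 1 library left out, with the shares given above. There were 13 with RLE factors (8.67% against 0.77%), 28 with DESeq2 (18.7% against 5.01%) and 34 with limma (22.7% against 19.8%). With no low count filter there were 17 (11.3% against 1.44%), and without the week 2 libraries 30 (20% against 11.9%). With all 28 libraries 0 of all genes were called (24 of the 150 had an unadjusted p under 0.05). Uninjured cord against culture gave 55 calls with all 28 libraries (36.7% against 42.6%). It gave 68 (45.3% against 47.5%) to 89 (59.3% against 55.2%) with 1 library left out. Under all 19 alternatives its count stayed within 1.5 times 76, with more of the 150 lower. The cause of these shifts was not tested. For ENSRNOG00000013090, ENSRNOG00000017725 and ENSRNOG00000014006 the change between injured weeks kept its direction and its call under all 14 alternatives, with adjusted p of at most 0.0138, 0.0185 and 0.00563. No paired analysis was possible because the labels carry no replicate numbers. Week 2 depth limits single genes there.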
